A study of Mus musculus and synthetic RNA with 74 samples.

Results

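The genes described are 7 of the methionine cycle and of the branch that leads from it to cysteine, *Ahcy*, *Ahcyl1*, *Ahcyl2*, *Mtr*, *Mtrr*, *Cbs* and *Cth*, measured in single mouse embryos. They were chosen by name, and all 7 are listed among the 20330 genes of the E2.5 table and the 21199 genes of the E3.5 table. The embryos came from crosses of adult *Mettl16*+/- females, superovulated with hormones, with *Mettl16*+/- males, in a line made by Cas9 injection of B6D2 hybrid embryos and bred to C57BL/6JRj partners. The knockout allele carries a stop-codon cassette, and the authors called each embryo's genotype from reads of either allele. At E2.5 (morula) there were 5 WT, 14 HET and 12 KO embryos, and at E3.5 (blastocyst) there were 18 WT, 9 HET and 12 KO embryos. All had heterozygous mothers, so RNA and protein laid down in the oocyte came from a *Mettl16*+/- animal in every group. Each deposited level is 1 mean over the 31 or 39 embryos of a stage, with the genotypes together. It has no spread between embryos, and no genotype comparison is made here. The study lists the sequenced reads of each embryo, but a mean over embryos cannot be set against them. A separate experiment of the study methylated a randomized RNA library in vitro with recombinant human METTL16, and sequenced 2 input and 2 m6A-IP libraries (RNAs pulled down with an antibody against N6-methyladenosine) from reactions 11 and 12.

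S-adenosylmethionine (SAM), the methyl donor made by MAT2A, is left as S-adenosylhomocysteine (SAH) once its methyl group has been transferred. SAH blocks many methyltransferases, and adenosylhomocysteinase (AHCY) is the enzyme that splits it into adenosine and homocysteine. AHCYL1 and AHCYL2 resemble AHCY in sequence but are best known as binding partners of the IP3 receptor and of ion transporters. Homocysteine is then either methylated back to methionine by methionine synthase (MTR), which uses cobalamin and a folate methyl group, or condensed with serine by cystathionine beta-synthase (CBS), after which cystathionine gamma-lyase (CTH) releases cysteine. METTL16 is the methyltransferase that acts on the *Mat2a* mRNA, at hairpins that hold the nonamer TACAGAGAA.

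To place the 7 genes beside the in vitro data, the nonamer was searched on the sense strand of each gene. It was found 11 times, 3 times in *Ahcyl1*, 5 times in *Ahcyl2*, once in *Cbs* and 2 times in *Cth*, and these letters were not found in *Ahcy*, *Mtr* or *Mtrr*. All 11 matches lie in introns of the longest RefSeq transcript, and none is exonic in any listed transcript of its gene. The windows below are GRCm38 (mm10) sequence in the direction of transcription, cut to the layout of the in vitro library with 11 bases before and 10 after the nonamer. One is shown for each of the 9 structures predicted, with the nonamer in capitals, and the adenosine that METTL16 methylates is base 15 of each window.
Ahcyl1 site 1: agccagggctaTACAGAGAAactgtcttga
Ahcyl1 site 2: ggcctcagtgtTACAGAGAActcagtccaa
Ahcyl1 site 3: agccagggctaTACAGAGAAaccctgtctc
Ahcyl2 site 2: ctagacctatgTACAGAGAAttgcaaagat
Ahcyl2 site 3: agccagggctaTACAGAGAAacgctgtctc
Ahcyl2 site 4: gggtgttttgcTACAGAGAAtgaagagatt
Ahcyl2 site 5: agacaggactaTACAGAGAAaccctgtctc
Cbs site 1: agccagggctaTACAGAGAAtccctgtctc
Cth site 1: agccaggactaTACAGAGAAgcccagtctt

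The site windows lie at chr3:107684488-107684517, chr3:107681963-107681992 and chr3:107672801-107672830 on the minus strand for *Ahcyl1* sites 1 to 3. Those of *Ahcyl2* sites 1 to 5 lie on the plus strand at chr6:29817877-29817906, chr6:29862067-29862096, chr6:29893409-29893438, chr6:29904840-29904869 and chr6:29907742-29907771. The *Cbs* window lies at chr17:31620094-31620123 on the minus strand, and those of *Cth* sites 1 and 2 at chr3:157917611-157917640 and chr3:157903423-157903452, also on the minus strand. Several share most of their sequence. Of the 11 windows, 6 share their first 20 bases, *Cth* site 2 is identical to *Ahcyl1* site 3, and that window occurs 16635 times in the genome. In all, 8 of the 11 sites lie in repeat-masked sequence, against 61.3% of the nonamer's matches over the whole genome, and 4 of the 11 windows occur once in the genome. The share of all genes with a sense match anywhere in their span is 35.2%. Among genes of similar span to each gene, it is 54.2% for *Ahcyl1*, 91.8% for *Ahcyl2*, 44.3% for *Cbs* and 51.8% for *Cth*, and 32.3%, 77.8% and 40.3% for *Ahcy*, *Mtr* and *Mtrr*, which hold none. A match is a description of the sequence and does not say that METTL16 acts there.

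The stage labels were checked against marker genes. The 6 trophectoderm markers had a summed mean of 8067 normalized counts at E2.5 and 83383 at E3.5, with the keratin *Krt18* the most abundant at E3.5 (1332 against 35173), and *Tfap2c* was the single one of them lower at E3.5 (5278 against 1849). The 4 markers of inner cell mass and epiblast summed to 9850 and 8277 and did not move together. The pluripotency factors *Nanog* (552 and 4161) and *Sox2* (13.6 and 165) were higher at E3.5 and *Pou5f1* was lower (9017 and 3527), while the growth factor gene *Fgf4*, at 268 and 423, did not pass 2-fold. The 5 oocyte markers summed to 2061 and 135, led by *Zp3*, a zona pellucida protein, at 1587 and 104. Of the 6 markers of cumulus and oviduct, *Ptx3* is not listed, 4 were below 1 at both stages and *Ovgp1*, an oviduct glycoprotein, was at 320 and 25.3. *Hba-a1*, an alpha globin, was at 49.6 and 12.0, and *Ptprc*, the pan-leukocyte marker, at 0.316 and 1.34. The oocyte markers and the single oviduct gene *Ovgp1* thus stood higher at E2.5, and the part of such transcripts in the levels below was not tested. In whole embryos, fewer cells of a type and less RNA per cell cannot be told apart.

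Levels between genes are given per kb of the longest RefSeq transcript, from the gene table. At E2.5 the order was *Cth* at 4509 mean normalized counts per kb, *Ahcy* at 541, *Mtrr* at 391, *Mtr* at 111, *Ahcyl1* at 72.2, *Ahcyl2* at 24.8 and *Cbs* at 19.5. At E3.5 it was *Ahcy* at 2199, *Cth* at 673, *Cbs* at 531, *Ahcyl1* at 295, *Mtrr* at 287, *Ahcyl2* at 131 and *Mtr* at 129. With 1 mean a stage there is no spread to say which neighbours in these orders differ. The range from the highest to the lowest of the 7 was 232-fold at E2.5 and 17.1-fold at E3.5. The order depends on the table used. By summed exons per kb, *Cth* stood highest at E3.5 as well (1242, beside 1044 for *Ahcy*), and *Ahcyl2* lowest at both stages (49.1 at E2.5, beside 53.3 for *Cbs*, and 164 at E3.5). *Mtrr* (787) then stood above *Ahcy* (506) at E2.5, and the range at E3.5 was 7.56-fold.

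**Figure D1:**
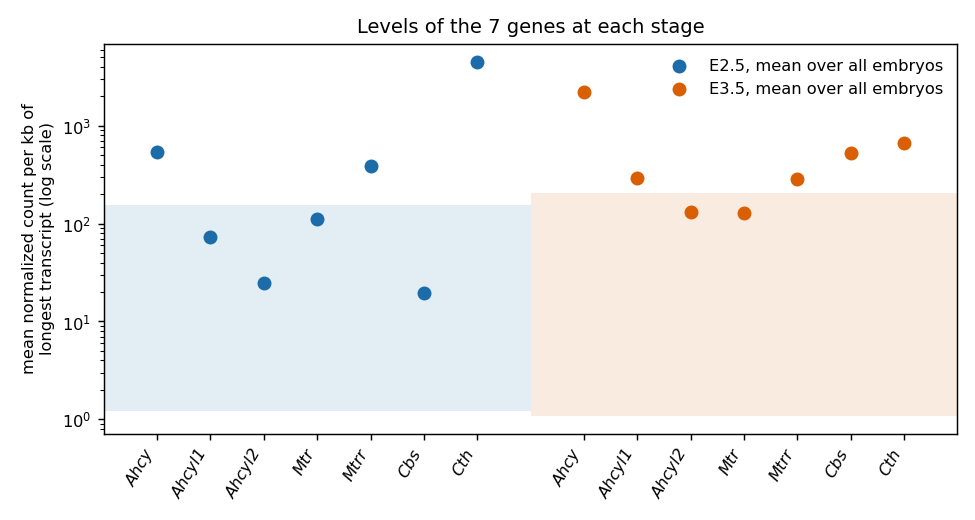
Level of each gene at E2.5 (blue) and E3.5 (orange), as mean normalized count per kb of the longest RefSeq transcript, on a log scale; each point is 1 mean over all embryos of the stage, so it has no error bar. The shaded bands hold the interquartile range of all genes; *Cth* stood highest at E2.5 (4509 per kb) and *Cbs* lowest (19.5 per kb), while *Ahcy* stood highest at E3.5 (2199 per kb) in this gene table, though not by summed exons (1044, beside 1242 for *Cth*), by which *Cbs* was not the lowest at E2.5 either (53.3, beside 49.1 for *Ahcyl2*).

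The 2 enzymes of the cysteine branch lay far apart at E2.5 and closer together at E3.5. *Cth* had a mean of 8121 normalized counts at E2.5 (rank 492 of 20330 genes) and 1213 at E3.5 (rank 3480 of 21199), and *Cbs*, which acts one step before it, had 48.7 (rank 9606) and 1330 (rank 3239). The level per kb of *Cth* was 232 times that of *Cbs* at E2.5 and 1.27 times at E3.5, and by summed exons 223 and 1.78 times. *Cth* alone made up 66.6% of the summed level of the 7 genes at E2.5 and 10.3% at E3.5 in the gene table, and 75.9% and 20.3% by summed exons. For scale, *Mat2a* had 29053 and 4664 normalized counts, and *Mettl16* 778 and 669.

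The stage ratio sets each gene's share of its table's total at E3.5 over that at E2.5, because the authors normalized the stages separately, and it is called past 2-fold. By this measure *Cbs* was 23.7-fold higher at E3.5 (log2 4.57) and *Cth* 7.72-fold lower (log2 -2.95). *Ahcyl2* was 4.57-fold higher (129 against 681 normalized counts), *Ahcyl1* 3.54-fold higher (278 against 1134) and *Ahcy* 3.53-fold higher (1376 against 5593). *Mtrr* (1737 against 1274; log2 -0.65) and *Mtr* (499 against 577; log2 0.01) did not pass 2-fold. Thus 4 of the 7 were called higher, where 33.6% of the 19639 genes listed at both stages were, and 1 was called lower, where 23.2% were. The same 4 and 1 were called with the values as deposited (38.0% and 20.5% of genes), with sums of exons (34.4% and 25.5% of 19107 genes) and relative to the median gene (26.8% and 28.8%). The median log2 ratio of the 7 was 1.82, beside 0.30 over all 19639 genes.

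The median gene with a mean of at least 10 at both stages (11774 genes) stood 0.34 higher at E3.5 on the log2 scale. Relative to it, the ratios were 4.22 for *Cbs*, 1.85 for *Ahcyl2*, 1.48 for *Ahcyl1* and *Ahcy*, -0.34 for *Mtr*, -0.995 for *Mtrr* and -3.29 for *Cth*. The sign for *Mtr* therefore depends on the scaling, being 0.21 with the values as deposited. Among these 11774 genes the ratio of *Cbs* lay at the 98.9th percentile and that of *Cth* at the 2.45th, while those of the 3 *Ahcy* family genes lay between the 85.0th and the 89.3rd. The stages also differ in their share of WT embryos (5 of 31 and 18 of 39), and stage and genotype makeup cannot be told apart in these means.

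The exons show how evenly these differences ran along each transcript. From E2.5 to E3.5 the reads of most genes shifted toward the 3′ end. Over 5426 genes with 8 or more listed exons, the log2 stage ratio of the 3′ exons, those after the middle of the gene's listed exons by number, exceeded that of the 5′ exons by a median of 1.17, and it did so in 92.3% of them. It did so in all 7 genes here as well, by between 0.63 (*Cth*) and 2.12 (*Mtr*). Coverage thus moved with stage, and its part in the stage ratios was not tested. For that reason each gene is given below by the same exon at both stages.

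**Figure D2:**
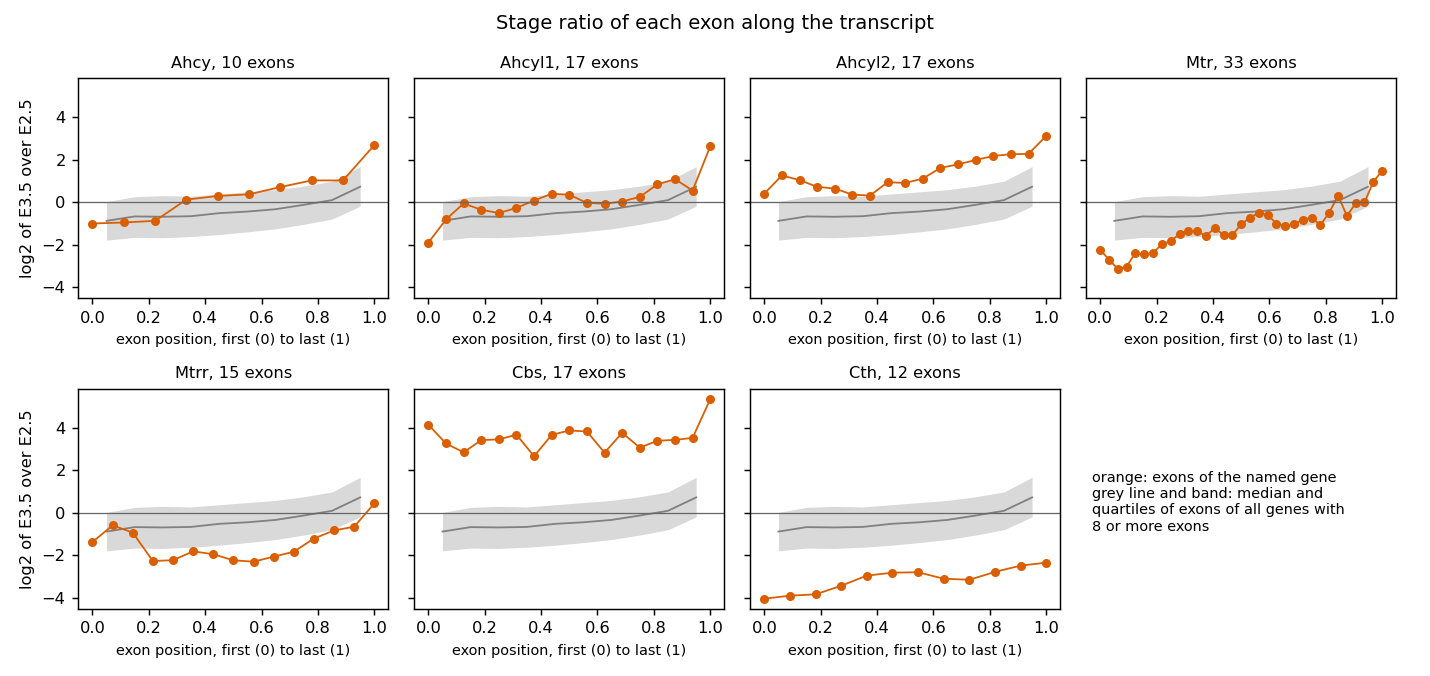
Log2 of the E3.5 share over the E2.5 share of each exon (orange points) against its position in the longest transcript, from the first exon (0) to the last (1). The grey line and band are the median and quartiles of exons with a mean of at least 10 in all genes with 8 or more exons, and they rise from a median of -0.88 at the 5′ end to 0.73 at the 3′ end. All exons of *Cbs* lie above 0 and all exons of *Cth* below it, whereas the other genes but *Ahcyl2* cross 0.

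*Cbs* and *Cth* kept one direction in every exon. All 17 exons of *Cbs* (chr17:31612623-31637205, minus strand) were past 2-fold higher at E3.5, from log2 2.67 in exon 7 to 5.36 in exon 17, beside 21.4% of the 72241 exons with a mean of at least 10 at both stages. Of these 17, 12 were below a mean of 10 at E2.5 and so lie outside that background, and the other 5 (exons 11, 13, 14, 15 and 17) were between log2 2.83 and 5.36. All 12 exons of *Cth* (chr3:157894248-157925063, minus strand) were past 2-fold lower, from log2 -4.04 in exon 1 to -2.35 in exon 12, beside 28.9% of the same 72241 exons, and all 12 had a mean of at least 10 at both stages. Exon 5 of *Cth* held a mean of 1976 normalized counts at E2.5 and 214 at E3.5, and exon 14 of *Cbs* held 15.9 and 141.

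*Ahcyl2* also stood higher at E3.5 in all 17 exons, 10 of them past 2-fold, from log2 0.31 in exon 7 to 3.12 in the last. Of its 14 exons with a mean of at least 10 at both stages, 9 were past 2-fold higher, beside 21.4% of such exons. *Ahcyl1* was higher in 9 of 17 exons. Its first exon held 8.52 and 1.92 normalized counts (log2 -1.90), its exon 13 held 32.0 at both stages (log2 0.25 after scaling to totals), and its last exon, of 1994 bases, held 169 and 879 (log2 2.63). *Ahcy* was lower at E3.5 in exons 1 to 3 and higher in exons 4 to 10, from log2 -1.01 in exon 1 to 2.69 in exon 10. From the 5′ exons alone, the ratios of *Ahcy* and *Ahcyl1* were -0.15 and -0.18, so that the sign of both depends on the exons used. Among the 5426 genes, where the 5′ exons had a median of -0.59, these lay at the 61.6th and 61.0th percentiles. By the 3′ exons they were 1.64 and 1.87, at the 77.7th and 81.6th percentiles of genes with a median of 0.52.

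The 2 genes of methionine resynthesis were lower at E3.5 in most of their exons. By the gene table neither passed 2-fold (log2 0.01 for *Mtr* and -0.65 for *Mtrr*). Over all genes, the median ratio of exons with a mean of at least 10 was also negative along most of the transcript. It rose from log2 -0.88 at the 5′ end to 0.73 at the 3′ end. The share of all exons that were lower was not computed, so the counts of lower exons below have no background. *Mtr* was lower at E3.5 in 30 of its 33 exons, 21 of them past 2-fold, but 15 of the 33 were below a mean of 10 at a stage. Of the 18 with a mean of at least 10 at both stages, 6 were past 2-fold lower, a share near the 28.9% of the 72241 such exons. Exon 2, which was below 10 at E3.5, held 38.7 against 4.99 normalized counts, and exon 33 held 113 against 264. Its 5′ exons gave log2 -1.87 (19.3rd percentile) and its 3′ exons 0.24 (41.7th percentile). *Mtrr*, whose product reactivates methionine synthase, was lower in 14 of 15 exons, 10 of them past 2-fold (28.9% of exons), and gave -1.53 from the 5′ exons and -0.61 from the 3′ exons. Its last exon was the exception, with 537 against 614 normalized counts (log2 0.44).

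By the 5′ exons, 1 of the 7 genes was past 2-fold higher at E3.5 (15.1% of genes) and 3 were past 2-fold lower (39.3% of genes). By the 3′ exons the counts were 4 higher (36.6%) and 1 lower (12.6%). *Cbs* was the gene called higher by both sets of exons and *Cth* the gene called lower by both.

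**Figure D3:**
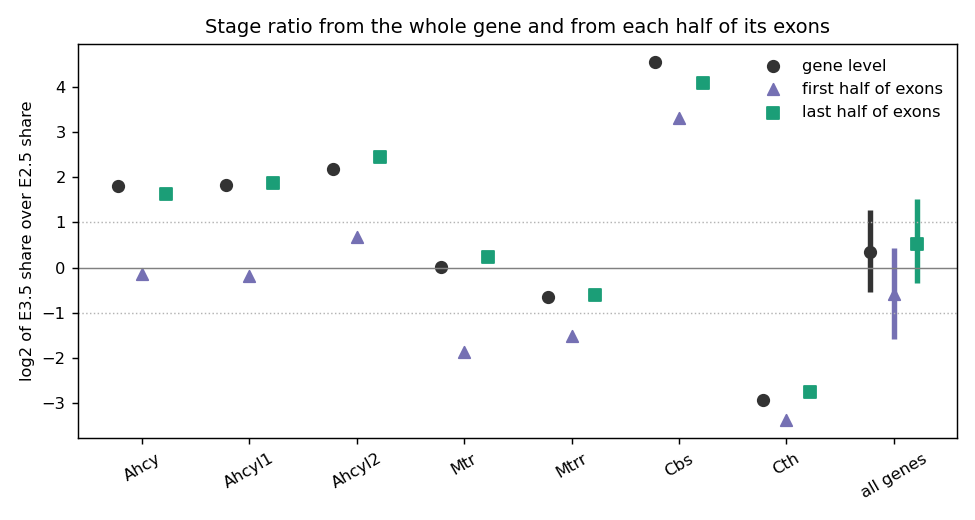
Log2 stage ratio of each gene from the gene table (circles), from its 5′ exons (triangles) and from its 3′ exons (squares). At the right, symbols and bars give the median and quartiles over all genes; dotted lines mark 2-fold. *Cbs* (3.31 and 4.10 by 5′ and 3′ exons) lies above and *Cth* (-3.40 and -2.76) below both dotted lines, and *Ahcy* and *Ahcyl1* fall on either side of 0 according to the exons used.

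Copies of some of these genes could share their reads. The *Ahcy* transcript (2543 bases) aligned over 2083 bases to chr16:46152994-46155076, where the single-exon gene *Gm4737* is listed, at 99.7% identity. It also aligned over 2083 bases to a stretch of chromosome 1 at 98.9%, and to X chromosome stretches at 94.0% and 91.3%. *Gm4737* had 104 normalized counts at E2.5 and 38.4 at E3.5, so *Ahcy* was listed 13.2 and 146 times as high. Summed over both genes the stage ratio was log2 1.72, beside 1.82 for *Ahcy* alone. The summed exons of *Ahcy* came to 0.935 of its gene level at E2.5 and 0.475 at E3.5, where the median gene had 1.72 and 1.175, so its level is uncertain. The last exon of *Mtrr* has 3 further stretches on chromosome 13 at 94.5% to 96.1% identity, and the end of *Cth* has 1 on chromosome 6 at 95.6% over 460 bases. No such match of *Ahcyl1*, *Ahcyl2*, *Mtr* or *Cbs* was found, and no other listed gene overlaps any of the 7.

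Some exons of *Ahcyl2*, *Cbs* and *Mtrr* belong to only some of their transcripts. *Ahcyl2* has an upstream first exon (chr6:29768443-29768906) at 36.6 and 40.8 normalized counts per kb at E2.5 and E3.5. Its downstream alternative first exon (chr6:29859596-29859779), the start of 1 of its 3 transcripts, was at 0.958 and 0.632 per kb. The upstream exon starts the other 2 transcripts, which these values do not tell apart. *Cbs* has a coding exon of 42 bases (chr17:31614529-31614570) that 1 of its 3 transcripts includes, and it is printed here because its reads belong to that transcript and to neither of the others.
Cbs exon 16: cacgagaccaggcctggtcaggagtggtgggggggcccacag
This exon held a mean of only 4.36 normalized counts at E2.5, below 10, and 42.5 at E3.5 (log2 3.53). Divided by its short length, these are 104 and 1012 per kb. In *Mtrr*, a coding exon of 373 bases (chr13:68575018-68575390) that 2 of 3 transcripts include held 307 and 55.2 normalized counts. Its alternative first exons held 89.1 and 28.9 (809 bases) and 74.0 and 23.7 (105 bases), and part of their length is shared.

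Reads in introns were set against those in exons, each summed and divided by length. The density of intron reads was 0.0754% of exon density in *Cth* at E2.5, at the 4.79th percentile of 7917 genes with an exon sum of at least 100 at both stages, and 0.245% at E3.5. The median gene had 0.719% and 1.28%. *Cth* was the lowest of the 7 at both stages, and also by medians over introns and exons, at 0.0596% and 0.104%. *Ahcyl2* was at 2.54% and 3.64%, the 84.5th and 80.0th percentiles. Its introns together held 173 normalized counts at E2.5 and 829 at E3.5, beside 255 and 855 in its exons. Intron 1, of 94233 bases, held 143 and 655 of them, or 82.8% and 79.0%. By medians over introns and exons *Ahcyl2* was at 0.305% at E2.5, below *Cbs* (0.889%), *Ahcyl1* (0.743%) and *Mtr* (0.449%). At E3.5 it was at 1.78% by medians, the highest of the 7. The density without intron 1 was not computed. Sites 1 and 2 of *Ahcyl2* lie in intron 1, site 2 downstream of the alternative first exon. The introns around the other sites held between 0.123 (intron 13 of *Ahcyl2*) and 76.1 (intron 10 of *Cth*) normalized counts at E2.5, and between 1.15 (intron 5 of *Ahcyl1*) and 45.6 (intron 1 of *Ahcyl1*) at E3.5.

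The genes around the 7 were counted by the same stage ratio, called past 2-fold, beside 33.6% of all genes higher and 23.2% lower; the 3 with the highest level at either stage are named. Of 9 other genes that make or use SAM or remethylate homocysteine, 8 are listed at both stages, 7 of them lower at E3.5 and 0 higher. The lowest of these 7 had only 1.36 and 0.0214 normalized counts. *Bhmt*, which remethylates homocysteine with betaine, had 83492 and 24105 normalized counts (log2 -1.997), *Pemt*, which methylates phosphatidylethanolamine, 45370 and 10396 (log2 -2.33), and *Mat2a* 29053 and 4664 (log2 -2.84). The median log2 ratio of these 8 was -2.05, beside 0.30 over all genes. Of 11 genes downstream of cysteine, 6 were higher and 2 lower (median 1.45), led by *Got1* (2113 and 8235), the glutathione synthetase gene *Gss* (160 and 4839) and *Gclm* (524 and 1994), a subunit of glutamate-cysteine ligase. A list of 3 genes around adenosine, the other product of AHCY, had all 3 higher (median 1.60). *Adk* (128 and 871), whose product phosphorylates adenosine, and *Ada* (21.3 and 74.3), whose product deaminates it to inosine, act on adenosine itself, and *Pnp* (1846 and 6189) acts on inosine. The counts for these lists are by the gene table. By their 5′ exons, *Ada* (log2 0.73) and a gene among the 6 higher downstream of cysteine (0.82) did not pass 2-fold. *Gss* (3.56), *Got1* (1.86) and *Adk* (1.70) still did.

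The in vitro table gave a value for each structure predicted at the 11 sites. Each library RNA was folded by the authors and the reads of all RNAs with the same fold were summed, so the values belong to the fold and not to the sequence of the site. The 11 windows gave 9 folds, all of them in the table of 36835. Base 15 lay in a hairpin loop at 9 sites and was paired at 2 (*Ahcyl2* sites 3 and 4), and at none did it lie in a bulge. The fold of *Ahcyl2* site 4 had an energy of only -0.1 kcal/mol, and without dangling ends that window was predicted to hold no pairs. The shares of all structures by the place of base 15 were not computed. With limma (log2 of value + 5, Benjamini-Hochberg adjusted p below 0.1), 6 of the 9 folds were lower in m6A-IP than in input, where 27.2% of all structures were. Of the 9, 1 was higher, where 12.5% were. Each reaction gave both an input and an m6A-IP library, and with the reaction as a block 4 of the 9 were lower and 1 was higher.

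The fold of *Ahcyl2* site 5 had normalized reads of 618 and 624 in the input libraries of reactions 11 and 12 and of 259 and 173 in the m6A-IP libraries. The groups did not overlap, and it fell by 1.53 on the log2 scale (SE 0.22, limma adjusted p = 0.0141). *Ahcyl1* site 1 had 2688 and 2659 in input and 1369 and 1040 in m6A-IP (log2 -1.16, SE 0.19, limma adjusted p = 0.0163). *Cth* site 1, the most abundant fold, had 5204 and 5216 in input and 2965 and 2474 in m6A-IP (log2 -0.94, SE 0.17, limma adjusted p = 0.01998). In all 3 of these folds base 15 lies in a hairpin loop. It also does so in the folds of *Ahcyl1* site 2 and *Ahcyl2* site 2, which were not called.

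*Cbs* site 1 had 47.7 and 41.5 in input and 21.6 and 20.8 in m6A-IP (log2 -0.92, SE 0.24, limma adjusted p = 0.0420). The value of 20.8 rests on 3 reads. The fold that *Ahcyl1* site 3, *Ahcyl2* site 1 and *Cth* site 2 share had 331 and 383 in input and 263 and 236 in m6A-IP (log2 -0.51, limma adjusted p = 0.0701). This call was lost with the reaction as a block (limma adjusted p = 0.112) and with libraries scaled to their totals (adjusted p = 0.118). The call of *Ahcyl2* site 4 (log2 -0.41, limma adjusted p = 0.0854) was likewise lost with the block (adjusted p = 0.234), with that scaling (adjusted p = 0.192) and with the window folded without dangling ends (adjusted p = 0.736). When either input library was left out, *Ahcyl2* site 5 was the single fold of the 9 still called (adjusted p = 0.0210 and 0.0237).

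The fold that was higher in m6A-IP was that of *Ahcyl2* site 3, in which base 15 is paired, with 81.4 and 73.1 in input and 113 and 125 in m6A-IP (log2 0.59, SE 0.18, limma adjusted p = 0.0588). Without dangling ends the site was predicted to fold differently, with base 15 in a hairpin loop. *Ahcyl2* site 2 (1422 and 1415 in input, 1265 and 963 in m6A-IP) did not pass, with a log2 difference of -0.36 and a 95% interval from -0.81 to 0.09. *Ahcyl1* site 2 had 88.2 and 71.3 in input and 113 and 48.5 in m6A-IP, so that the groups overlapped, and its interval ran from -1.04 to 0.86. The m6A-IP library of reaction 12 held 1154715 reads over the deposited structures, recovered from the steps between its values, where the others held 20454163 and 18106811 (input) and 22118622 (m6A-IP of reaction 11). Its value rests on 7 reads for *Ahcyl1* site 2 and 18 for *Ahcyl2* site 3.

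**Figure D4:**
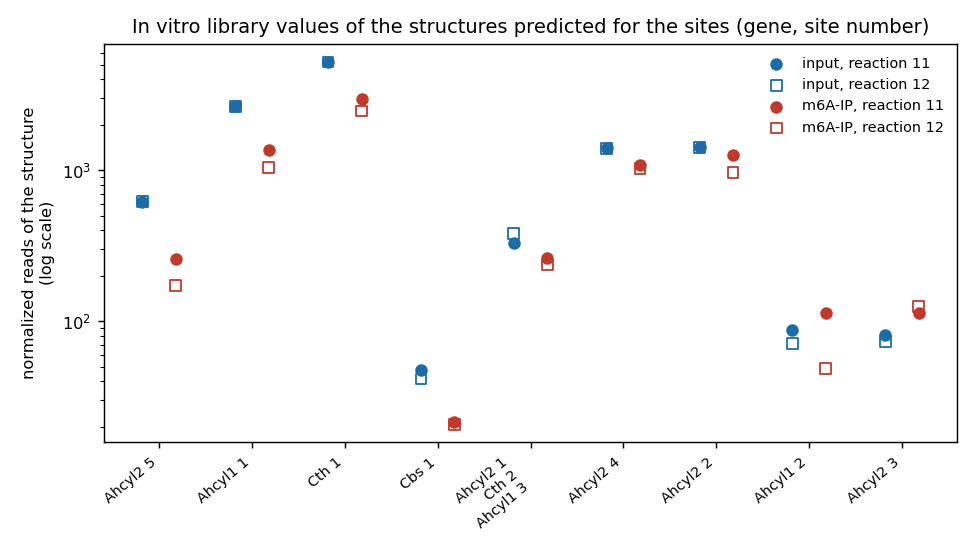
Normalized reads (log scale) of the fold predicted at each nonamer site, named by gene and site number, in 2 input (blue) and 2 m6A-IP (red) libraries; circles are reaction 11 and open squares reaction 12. Folds are ordered by their log2 difference, from *Ahcyl2* site 5 (-1.53) at the left to *Ahcyl2* site 3 (0.59) at the right. The input and m6A-IP points of *Ahcyl1* site 2 overlap. How many of all structures have points that overlap was not computed, so their separation at the other folds is not a result about these sites.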

How the data were processed

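Single embryos were sequenced with Smart-seq2, which selects polyadenylated RNA and keeps no strand. For the embryo tables the authors estimated gene counts on RefSeq transcripts of mm10 with Salmon 0.7.2, or counted exons and introns with featureCounts after STAR alignment, normalized them with DESeq2 1.18.1 within a stage and deposited the mean signal over all embryos of the stage. The in vitro signal was deposited per library, as reads per RNAfold structure divided by DESeq2 size factors. The authors' own fold changes and p-values, between genotypes and of m6A-IP over input, are also in the tables and were not used, and values per embryo were not analysed here. The members and gene lists were chosen with earlier results of these data known. Named are the 7 genes, *Mat2a* and *Mettl16* for scale and the 3 genes of each list with the highest level at either stage, and single markers and the copy Gm4737 were added after their values were seen.

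Stage ratios were taken on shares of the table total, and exon values from the longest transcript. The deposited exons shared coordinates with GRCm38.p6 for 97.5% of exons. Copies were sought with minimap2 2.31, windows folded with RNAfold 2.7.2. For the in vitro libraries limma 3.58.1 was run under R 4.3.3 (trend, pseudocount 5) after a trial on simulated data, with edgeR 4.0.16 as an alternative on reads recovered from the steps between values (100% whole within 0.01), summed over the deposited structures only. The study's methods describe duplicate reactions, each divided into an input and an m6A-IP sample, so the reaction number pairs the libraries. The deviations of input and m6A-IP of reaction 11 from their group means correlated at 0.02 over 11379 structures. The fit reported first had no block, and the p-values measure the spread between these libraries. Alternatives changed the scaling, filter, pseudocount, transcript, libraries, block and folding. Tables were computed with Python 3.11.15 and pandas 2.3.3.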

Additional observations from a re-analysis of the deposited data

How the results depend on the processing

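With 1 mean a stage, no stage difference has an error, and the reads that the study lists for each embryo cannot be set against it. Of 35 alternative values of the 7 stage ratios, 28 moved by no more than 1.5-fold and reversed no call. From the 5′ exons, chosen after seeing the data, the log2 ratios of *Ahcy* (-0.15) and *Ahcyl1* (-0.18) reversed and those of *Ahcyl2* (0.69), *Mtr* (-1.87), *Mtrr* (-1.53) and *Cbs* (3.31) moved, with 1 gene past 2-fold higher and 3 lower. The sum of exons gave 3.95 for *Cbs*. The cause was not tested.

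In vitro, 1 fold was higher and 6 lower in m6A-IP. Leaving out 1 library gave 0 to 2 higher and 1 to 8 lower; without input replicate 11 or 12 the lower one was that of *Ahcyl2* site 5. A library left alone in its group was assumed to vary like the other group. edgeR gave 2 higher. *Ahcyl1* site 2 reversed, to 0.13 with libraries scaled to totals, 0.43 with edgeR, and -0.66 to 0.48 without single libraries. Counts over all 36835 structures were 4621 higher and 10036 lower, 8299 and 9130 scaled to totals, 10103 and 14736 with edgeR, 871 and 2104 without input replicate 11, 855 and 1994 without input replicate 12, 8436 and 20642 without m6A-IP replicate 11 and 11188 and 15155 without m6A-IP replicate 12. With reaction as a replicate block, 1 fold was higher and 4 lower (4282 and 10863 of all structures), the calls for *Ahcyl2* site 4 and the fold shared by 3 sites being lost (adjusted p = 0.234 and 0.112), and no other call of the 9 changed.

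Summed exons, also chosen after seeing the data, moved 8 of 14 levels per kb by over 1.5 times. The percentiles of *Ahcyl2* and *Cbs* at E2.5 fell to 39.6 and 24.0 among genes with a mean of at least 10, and 9 of 28 alternative intron densities moved by over 1.5 times.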

Other observations

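The counts here are by the stage ratio called past 2-fold, beside 33.6% of all genes higher and 23.2% lower and a median log2 ratio of 0.30. Of 9 genes that supply cobalamin, 5 were higher and 2 lower by the gene table (median 1.67). By the 5′ exons, some of the 5 higher did not pass 2-fold (log2 0.59 and 0.81). The receptor gene *Cd320* had 15935 and 2143 normalized counts, *Lmbrd1* 1825 and 732, and *Mmadhc* 1036 and 3855. Of 14 genes of folate supply, 4 were higher and 2 lower (median 0.29), with *Folr1* at 15728 and 5705, *Tyms* at 7309 and 6348 and *Mthfd1* at 2916 and 4233. By the 5′ exons *Mthfd1* was at log2 -1.67. A gene among the 4 higher was then at 0.09 and did not pass 2-fold, while another still did (1.03). Of 9 genes of polyamine synthesis and methionine salvage, 1 was higher and 1 lower (median -0.57), with *Sms* at 14313 and 9556, *Amd1* at 7408 and 5557 and *Srm* at 5352 and 4168. The 5′ exons of *Sms* gave log2 -1.40 and those of *Amd1* -0.77. Of 6 transporters, 3 were higher and 1 lower (median 1.31), with *Slc3a2* at 11555 and 5906, *Slc7a5* at 251 and 531 and *Slc38a2* at 32.4 and 124. Their 5′ exons gave log2 -2.19 for *Slc3a2* and -2.50 for *Slc7a5*, which was thus reversed. *Slc38a2*, called higher by the gene table, was at 0.72 and did not pass 2-fold. The 4 primitive endoderm markers, with 2 higher and 1 lower, summed to 5003 and 5678.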
